A study of Mus musculus with 8 samples.

Results

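Sections of brain came from mice given vehicle, the chemotherapy drug paclitaxel (PTX) alone, or PTX and then a senolytic treatment. The genes described here are the 84 mouse genes for proteins of the cytosolic ribosome that were counted in these sections. They were chosen by name alone: symbols made of Rpl or Rps and a digit, with Rplp0, Rplp1, Rplp2 and Rpsa, without pseudogenes and without the Rps6k kinases, and with at least 100 unique molecular identifiers (UMIs, counted transcripts) over the 8 sections. The rule took 84 of 32285 listed genes, of which 23630 had a UMI anywhere and 15674 had at least 100. By role, 43 code for proteins of the large subunit, 3 for its stalk, 31 for proteins of the small subunit and 6 for paralogs (Rpl22l1, Rpl36al, Rpl3l, Rpl7l1, Rps27l and Rps27rt). The remaining gene, Rps19bp1, codes for a protein that binds Rps19 and is not itself part of the ribosome. Just inside the limit lay Rpl3l with 104 UMIs, and just outside it lay Rpl39l with 96 and Rpl10l with 0. All 84 had UMIs in every section. Many ribosomal protein genes have near-identical processed copies in the genome, and reads of Rps27 and Rps27rt or of Rpl36a and Rpl36al could be split between them, so single values of such pairs are uncertain.

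The cytosolic ribosome joins a small subunit, which reads the messenger RNA, to a large subunit, which forms the peptide bond. Each subunit is a core of ribosomal RNA with many proteins, nearly all present in a single copy, so their messenger RNAs are among the most abundant of a cell and are made in step. Most of these messengers begin with a run of pyrimidines, the TOP (terminal oligopyrimidine) sequence, through which the kinase mTOR sets their translation. In the nervous system ribosomes are found in cell bodies and also in dendrites and axons, and the sheath-forming oligodendrocytes of white matter make large amounts of protein.

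The study laid coronal sections of fresh-frozen brain, 10 µm thick, on Visium slides, on which barcoded spots 55 µm wide capture polyadenylated RNA in place. A spot can hold several cells of different types, or part of one. All mice were labelled as male wild-type p16-3MR animals aged 9 to 10 months, perfused with saline and sampled 6 months after PTX. In p16-3MR mice the p16 promoter drives a fusion of luciferase, red fluorescent protein and thymidine kinase of a herpes virus, and ganciclovir (GCV) then kills cells in which that promoter is in use. The transgene reports this promoter and not every form of senescence. Control mice had the vehicle. PTX mice had 5 mg/kg PTX per day in 2 cycles of 5 days, 7 days apart. PTX+GCV mice had the same PTX and then 25 mg/kg GCV per day, and PTX+ABT263 mice the same PTX and then 1.5 mg/kg per day of ABT263 (navitoclax, an inhibitor of the Bcl-2 family of survival proteins), each in cycles of 5 days, 2 weeks apart. Each of the 4 groups had 2 sections. The labels do not say whether these came from separate mice, so p-values measure the spread between 2 sections, which may be technical.

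The sections held 19870666 to 42886400 UMIs over 2346 to 2839 kept spots, with 9.58% to 15.0% of UMIs from mitochondrially encoded genes. Both sections labelled PTX+ABT263 went against their label: Xist, transcribed from the inactive X chromosome of females, stood there at 19.7 and 19.3 CPM (UMIs of a gene scaled to a total of 1000000 UMIs) and at no more than 0.026 in the other 6 sections, and the Y-linked Ddx3y at 0.444 and 0 there against 31.1 to 35.8. Some gene counts by area and the median fold changes between the other groups are therefore also given without these sections. Mean shares, mean ratios and correlations by area include them. Spots were grouped into 13 clusters without the ribosomal protein genes, and 12 clusters were named as 10 areas from marker genes. The fiber tracts had Ermn and Cldn11 among their leading genes and the striatum Adora2a and Rgs9. The hypothalamus was led by Pmch and Hcrt in one cluster and by Baiap3 and Nts in the other, the meninges by Myoc and Ptgds, the habenula by Gng8 and Tac2, and the choroid plexus by Ttr and Ecrg4. The hippocampus was led by Spink8 and C1ql2, the piriform and amygdalar cortex by Ccn3 and Lypd1, the thalamus by Prkcd and Shox2, and the isocortex by Lamp5 in one cluster and by Trbc2, Vxn and Fezf2 in the other. Since the areas come from clusters of the same spots, levels between areas are described and not tested. A cluster of 383 spots led by Six3, Spp1 and Pvalb kept no name.

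Promoters are shown for 2 of the pairs of paralogs whose members differed between areas, and for Rps12 and Rplp0, which stood high in the fiber tracts. The sequences are those of RefSeq on GRCm38.p6, 60 bases each from 40 before the annotated start to 20 from the start on, 5′ to 3′ on the transcribed strand. They lie at chr4:152325686-152325745 (plus strand), chr3:28805468-28805527 (plus), chr3:90213629-90213688 (minus), chr9:66946046-66946105 (plus), chr10:23787190-23787249 (minus) and chr5:115559427-115559486 (plus). The starts lay 16, 72, 3, 0, 66 and 0 bases from the GENCODE starts of the same genes. For Rpl22l1 and Rps12 the whole window lies after the GENCODE start, within the GENCODE gene. Capitals mark matches to TATAAA, the letters of the TATA box, to CTTTCC, a stretch of pyrimidines, and to CCGGAAG, the core of an ETS factor motif, each searched as described after the sequences.

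Rpl22: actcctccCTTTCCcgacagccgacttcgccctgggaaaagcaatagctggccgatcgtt

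Rpl22l1: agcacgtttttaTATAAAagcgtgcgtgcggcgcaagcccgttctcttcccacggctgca

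Rps27: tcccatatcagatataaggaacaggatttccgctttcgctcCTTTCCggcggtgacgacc

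Rps27l: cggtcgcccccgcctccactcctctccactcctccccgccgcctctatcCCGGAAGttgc

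Rps12: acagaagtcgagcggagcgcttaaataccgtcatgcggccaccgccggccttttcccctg

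Rplp0: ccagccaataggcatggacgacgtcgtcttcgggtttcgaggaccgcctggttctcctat

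In these windows Rpl22 and Rps27 hold CTTTCC, Rpl22l1 holds TATAAA and Rps27l holds CCGGAAG, while Rps12 and Rplp0 hold none of these letters. The table of promoters, 250 bases before to 50 after each start, held 76 starts of 64 of the 84 genes, among 32851 starts in all. CTTTCC was found within 20 bases of the start on the transcribed strand in 14.5% of the 76 and in 1.95% of all starts. CTCTTTC, another pyrimidine stretch, stood there in 9.21% against 0.56%. CCGGAAG on either strand was found anywhere in the 300 bases in 34.2% against 8.86%, and within 20 bases of the start in 11.8% against 2.75%. TATAAA on the transcribed strand was found in 7.89% against 8.32%, a share close to that of all promoters. The CTTTCC of Rpl22 lies farther before its annotated start than that and is not in this count. A match is a description of the letters and not of a bound factor.

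Together the 84 genes gave 6.22% to 7.04% of all UMIs of a section, and this share differed more between areas of a section than between sections. Over the whole section it was 6.22 and 6.48% for Control, 6.71 and 6.83 for PTX, 6.34 and 6.31 for PTX+GCV and 6.88 and 7.04 for the sections with the PTX+ABT263 label. The fiber tracts had 8.52 and 8.91% for Control, 9.25 and 9.63 for PTX, 8.67 and 8.35 for PTX+GCV and 9.74 and 10.3 for the sections with the PTX+ABT263 label. In every section the fiber tracts stood above the isocortex, by 1.55 ± 0.0835 times (mean ± SD, n = 8). The hypothalamus stood at 7.61 and 8.61% for Control, 8.29 and 8.64 for PTX, 9.03 and 8.06 for PTX+GCV and 9.24 and 9.29 for the sections with the PTX+ABT263 label. The isocortex held 5.65 and 5.55% for Control, 6.11 and 6.10 for PTX, 5.36 and 6.04 for PTX+GCV and 6.10 and 6.31 for the sections with the PTX+ABT263 label. In the thalamus the share was 4.42 and 5.18% for Control, 6.13 and 6.42 for PTX, 5.27 and 5.11 for PTX+GCV and 5.75 and 5.06 for the sections with the PTX+ABT263 label, the lowest of the 10 areas by its mean but with both PTX sections at or above their own isocortex.

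The other areas lay between these. The meninges held 7.18% to 9.96%, the habenula 6.91% to 9.27%, the striatum 6.75% to 8.02% and the choroid plexus 5.99% to 8.12%. The hippocampus held 5.69% to 6.89% and the piriform and amygdalar cortex 5.57% to 6.41%. Relative to the isocortex of the same section the means were 1.46 for the hypothalamus, 1.44 for the meninges, 1.33 for the habenula, 1.23 for the striatum, 1.18 for the choroid plexus and 0.918 for the thalamus. Within the hypothalamus, the cluster led by Pmch and Hcrt had a mean share of 9.16% and the one led by Baiap3 and Nts 7.81%. Neighbours in the order of mean shares had ranges that overlapped: the fiber tracts were above the hypothalamus in 7 of 8 sections, the hypothalamus above the meninges in 4, and the piriform and amygdalar cortex above the isocortex in 4. Wilson 95% intervals of a binomial share were at most 0.021 percentage points wide for a whole section. They were at most 0.527 wide for the habenula, which had 10 to 32 spots a section. They cover counting error only.

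**Figure D1:**
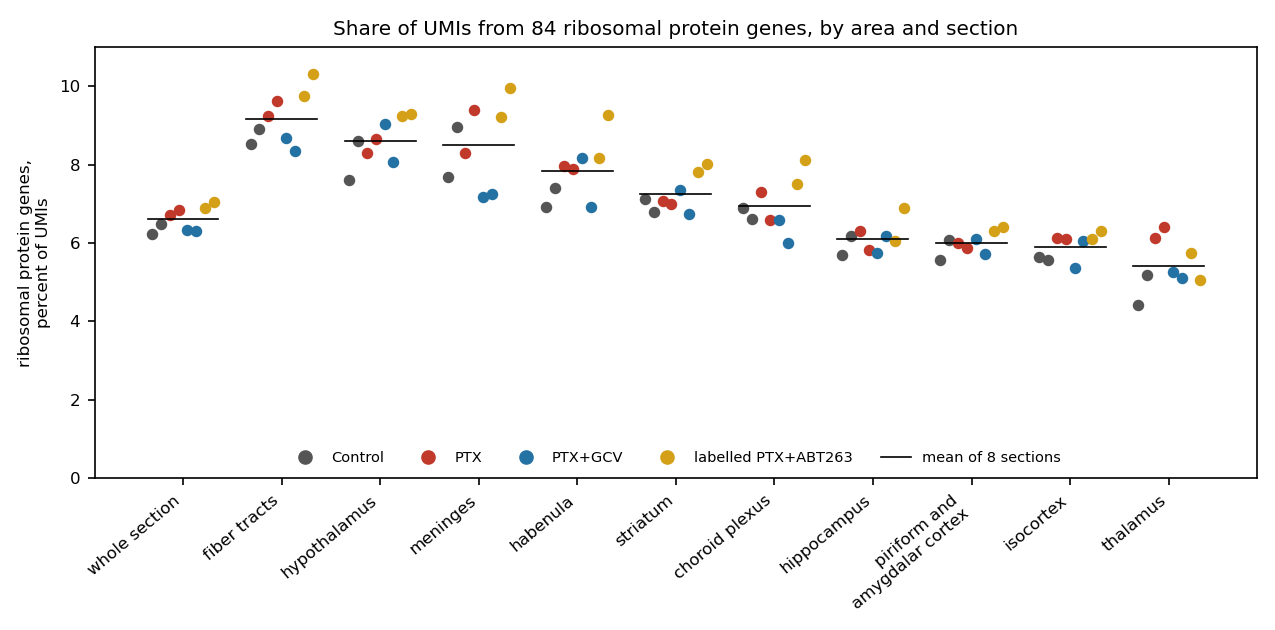
UMIs of the 84 ribosomal protein genes as percent of all UMIs (y axis) in the whole section and in 10 areas (x axis), 1 point per section coloured by group, with a black line at the mean of 8 sections. All 8 fiber tract points, 8.35% to 10.3%, lie above all 8 isocortex points, 5.36% to 6.31%.

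**Figure D2:**
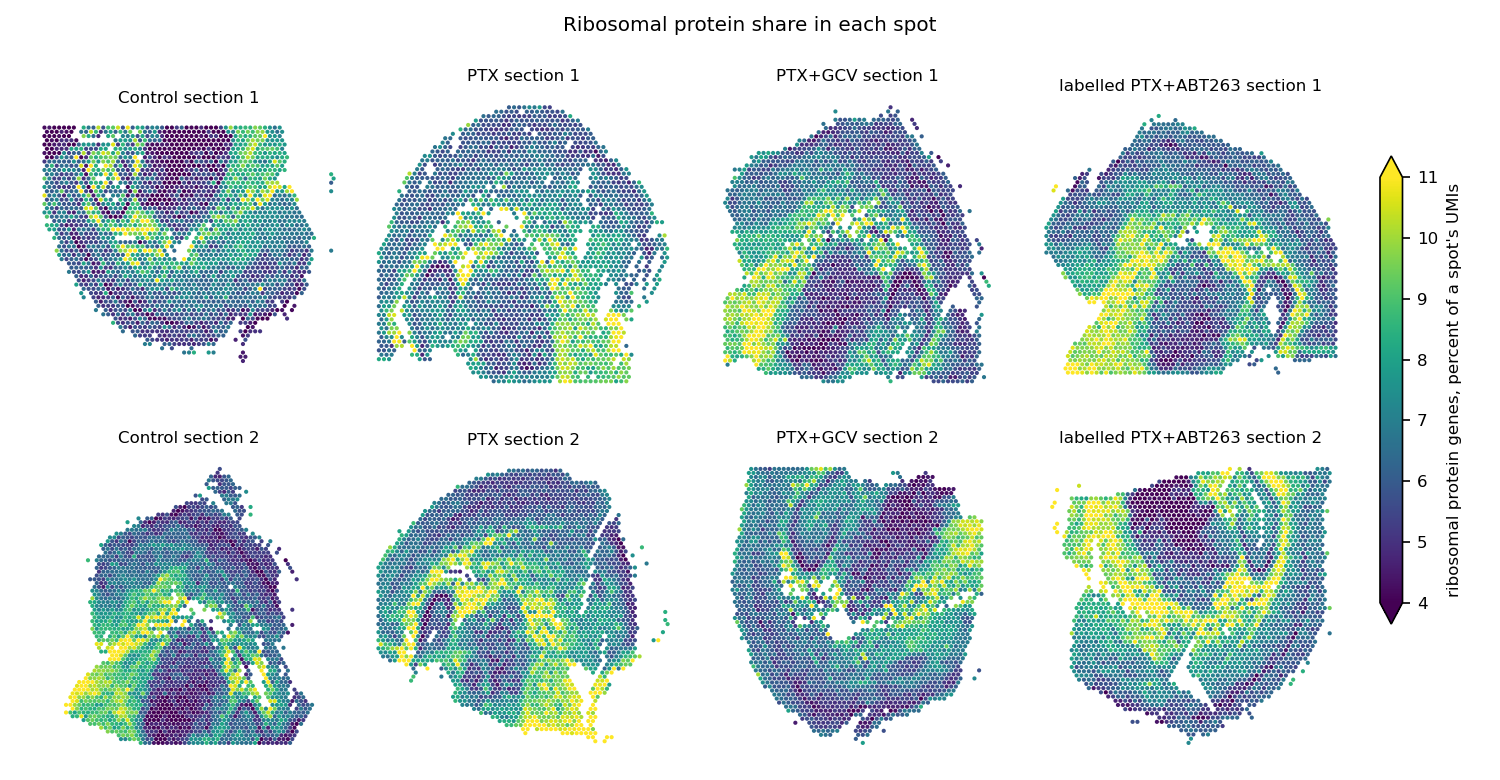
Maps of the 8 sections, each point a kept spot coloured by the percent of its UMIs that came from the 84 genes, on a scale from 4 to 11 percent. By the share of an area, the fiber tracts and the hypothalamus lie above the isocortex in each section. The thalamus has the lowest mean share of the areas but lies above the isocortex in both PTX sections.

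Spots with fewer UMIs had higher shares within an area. When the spots of an area were split at their median depth, the shallower spots had the higher share in 8 of 8 sections in 9 of the 10 areas, and in 6 of 8 in the habenula. The ratio of shallower to deeper spots reached 1.64 in the hippocampus and 1.63 in the choroid plexus, and ran from 1.01 to 1.14 in the fiber tracts. Since fiber tract spots were shallow, with a median of 2681 UMIs, areas were also compared over spots of 4000 to 8000 UMIs only. There the fiber tracts had a mean of 9.15%, the hypothalamus 9.02%, the meninges 8.81% and the striatum 7.68%, each above the isocortex (6.99%) in 8 of 8 sections. The choroid plexus had 8.51% there, above the isocortex in 7 of 8 sections, on 5 to 12 spots a section. The thalamus had 6.05% and was above the isocortex in 1 of 8. The hippocampus had 7.38%, above the isocortex in 6 of the 7 sections with at least 5 such spots. The isocortex itself had 10 to 183 such spots a section. These were its shallower spots, since its median was 8511.5 to 24052.5 UMIs a section. Within these limits the order of fiber tracts and hypothalamus over isocortex over thalamus was found at matched depth too. Fewer cells of a type in a spot and less of an RNA per cell cannot be told apart in these spots.

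Gene by gene, the level in an area was set against the level in the rest of the same section, as a log2 ratio of CPM with 1 CPM added to each. In the fiber tracts the 84 genes had a median of 0.45 against -0.26 for all 15674 genes, and 73 of 84 were above the rest in all 8 sections, beside 13.7% of all genes. In the hypothalamus the median was 0.46 against -0.04, with 79 above the rest in all 8 sections beside 17.2% of all genes. The meninges (median 0.34, 63 above, background 8.87%), the habenula (0.27, 43 above, background 8.2%) and the striatum (0.10, 35 above, background 7.12%) followed. In the choroid plexus the median was 0.05 against -0.50 for all genes, with 17 above (background 10.1%) and 9 below (background 30.2%) in all 8 sections. Below the rest of the section in all 8 sections were 31 genes in the hippocampus (median -0.11, background 19.9%), 61 in the piriform and amygdalar cortex (-0.18, 25.7%), 70 in the isocortex (-0.20, 25.4%) and 63 in the thalamus (-0.33, 24.3%).

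Over the 6 sections outside the PTX+ABT263 label 73 genes were above in the fiber tracts, 79 in the hypothalamus and 63 in the meninges, and 70 were below in the isocortex and 63 in the thalamus. A count over fewer sections cannot be smaller than over all 8, so equal counts mean only that no further gene met the rule. Among the counts by area not given here, 1 count above and 2 counts below rose past the limit set for a moved count. The scaling mattered in the areas near 0. With TMM factors in place of totals the median in the habenula was 9.69e-05 with 1 gene above the rest in all 8 sections, and without mitochondrially encoded genes in the totals the median in the choroid plexus was -0.03. With TMM factors the median in the fiber tracts was 0.57 and in the striatum 0.21.

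Both subunits took part. Of the 43 large subunit genes, 38 were above the rest of the section in all 8 fiber tract samples (median 0.42) and 41 in the hypothalamus (0.48). Of the 31 small subunit genes, all 31 were above in the fiber tracts (median 0.53) and all 31 in the hypothalamus (0.47). In the isocortex 35 of 43 large subunit genes (median -0.19) and 29 of 31 small subunit genes (-0.24) were below the rest in all 8 sections. In the thalamus the counts were 30 (median -0.30) and 29 (-0.36).

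Most of the genes shared 1 profile over the areas. Across the 10 areas, 66 of 84 had a Pearson correlation of at least 0.8 with the median of the others, and the median correlation was 0.916. The points are areas of the same sections and share their libraries, so no p is given. Among the highest were Rpl35a (0.994) and Rpl35 (0.985) of the large subunit and Rps10 (0.982) of the small one. Only 5 were under 0.5: Rpl3l (-0.302, on 104 UMIs in all), Rps19bp1 (-0.237), Rpl7l1 (-0.0455), Rpl22l1 (0.391) and Rps27l (0.427), of which 4 are paralogs and the other is no ribosomal protein. Next came Rpl29 (0.522), Rpl36al (0.544) and Rps27rt (0.602). The highest area was the hypothalamus for 34 genes and the fiber tracts for 32, and the lowest was the thalamus for 53.

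**Figure D3:**
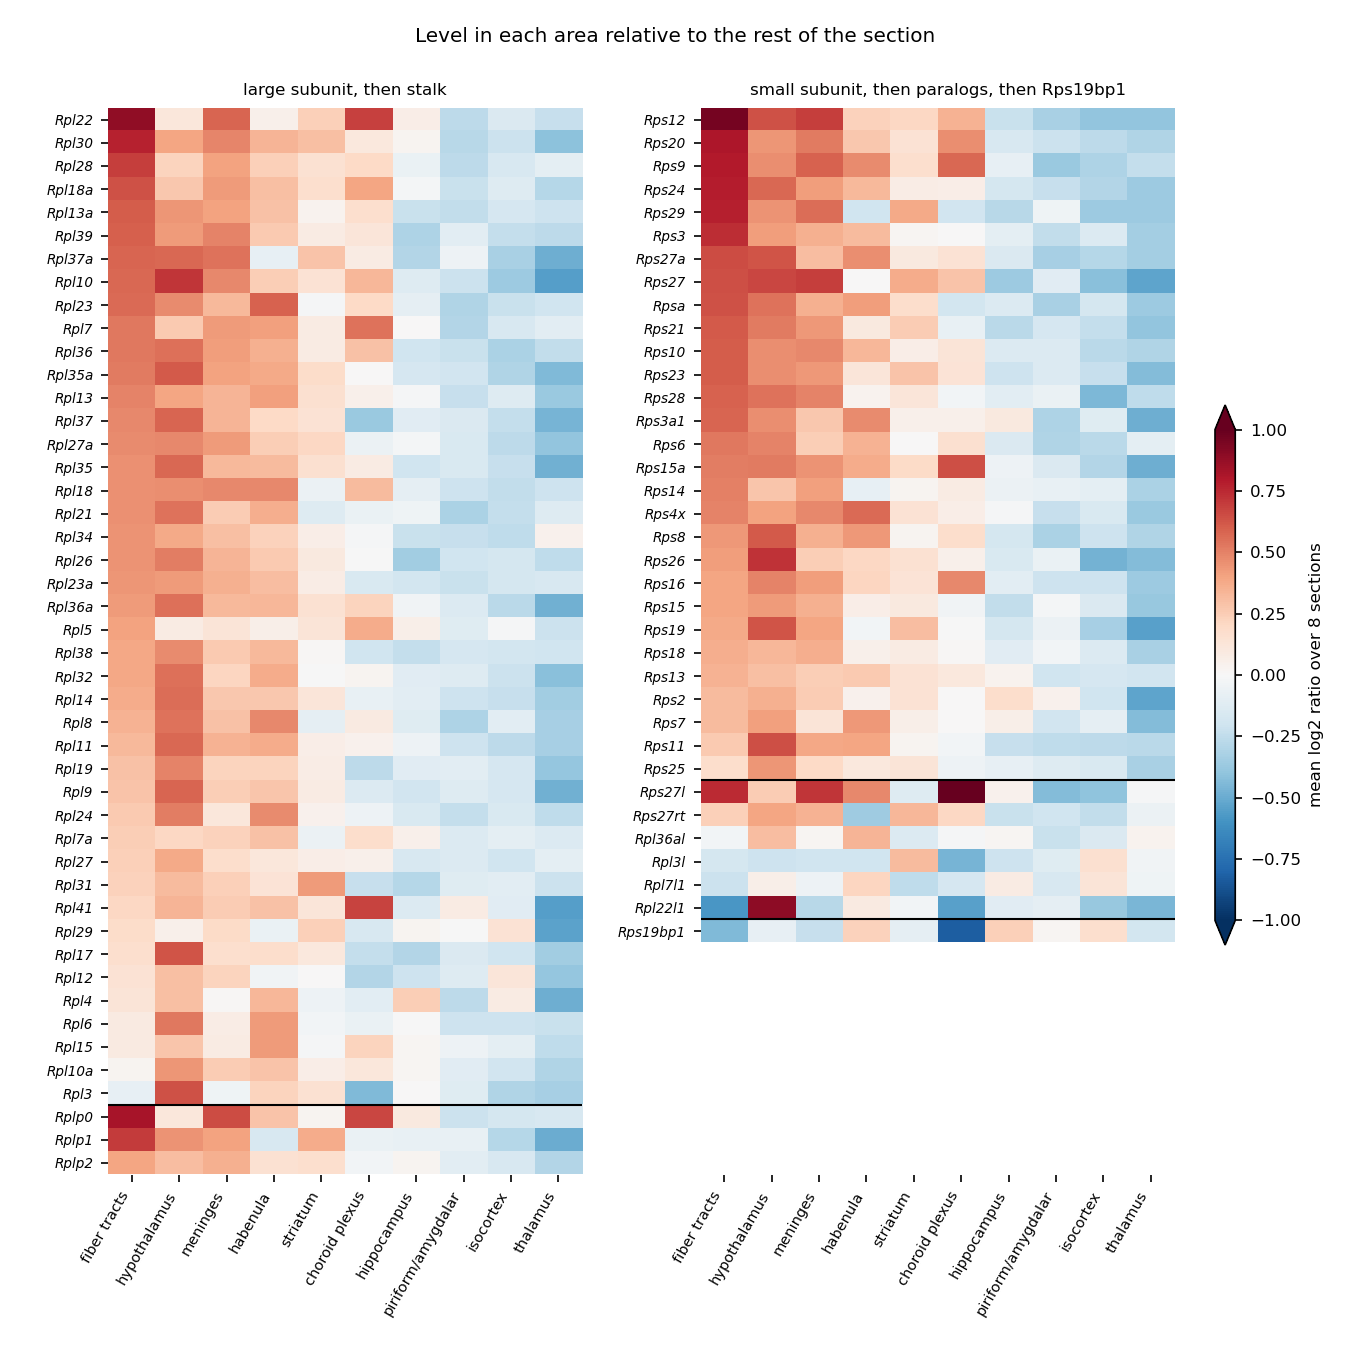
Mean log2 ratio of the level in an area to that in the rest of the section for 82 of the 84 genes (rows) and 10 areas (columns), over 8 sections, on a colour scale from -1 to 1. Large subunit and stalk genes stand in the left panel, small subunit genes, paralogs and Rps19bp1 in the right one. Most genes share the high fiber tract and hypothalamus columns. Rpl22l1, Rpl7l1 and Rps19bp1 are low in the fiber tract column, and Rps27l stands out in the choroid plexus column.

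In the fiber tracts the 4 genes with the highest ratios were Rps12, Rpl22, Rplp0 and Rps20. Rps12, a small subunit protein, stood there at 1542 and 1531 CPM for Control, 1606 and 1806 for PTX, 1486 and 1303 for PTX+GCV and 1840.3 and 1905 for the sections with the PTX+ABT263 label, against 771 to 894 in the rest of the sections, a log2 ratio of 0.96 ± 0.12 (mean ± SD, n = 8, as for all such ratios). Its 8 fiber tract values all lay above its values in the rest of the sections, with PTX+GCV the lowest group. Rps20, also of the small subunit, had a ratio of 0.81 ± 0.09. At the other end stood Rpl22l1 (-0.58 ± 0.20), Rps19bp1 (-0.44 ± 0.16), Rpl7l1 (-0.21) and Rpl3l (-0.18). Rpl3, which lies next to the site of peptide bond formation, was the single large subunit gene below the rest in all 8 sections, though by little: 569 to 661 CPM in the fiber tracts against 620.4 to 666, a ratio of -0.08 ± 0.06. The genes not above the rest in all 8 sections were these 5 and Rpl36al, Rpl10a, Rpl15, Rpl6, Rpl12 and Rps27rt.

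The 3 stalk proteins form the arm that brings translation factors to the ribosome: Rplp0 is its base, and Rplp1 and Rplp2 are attached in pairs. Rplp0 stood at 476 and 482 CPM for Control, 506 and 549.8 for PTX, 471 and 439.8 for PTX+GCV and 548 and 659 for the sections with the PTX+ABT263 label in the fiber tracts, against 275 to 307 in the rest. Its ratio was 0.83 ± 0.13 in the fiber tracts, 0.67 in the choroid plexus and 0.65 in the meninges, but 0.11 in the hypothalamus. Rplp1 was at 0.70 in the fiber tracts and 0.37 in the striatum, and at -0.49 in the thalamus and -0.16 ± 0.12 in the habenula, where the median gene was above the rest. Rplp2 had 0.40 in the fiber tracts, 0.36 in the meninges and -0.30 in the thalamus.

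In the hypothalamus the highest ratios were those of Rpl22l1 (0.89 ± 0.15), Rps26 (0.72 ± 0.12), Rpl10 (0.72 ± 0.12) and Rps27 (0.67 ± 0.13). Rps26, a small subunit protein at the exit of the messenger channel, ranged from 1116 to 1458 CPM there and from 676 to 849 in the rest. Rpl10, which joins the large subunit late and is X-linked, ranged from 561 to 717 against 345 to 431. For both, the ranges did not overlap. The lowest were Rpl3l (-0.21), Rps19bp1 (-0.08), Rpl29 (0.05) and Rpl7l1 (0.06). Together with Rpl22 these were the genes that were not above the rest in all 8 sections.

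In the meninges, the membranes around the brain, the highest were Rps27l (0.72 ± 0.28), Rps12 (0.69), Rps27 (0.69 ± 0.17) and Rplp0 (0.65), and the lowest were Rpl22l1 (-0.28), Rps19bp1 (-0.23), Rpl3l (-0.20) and Rpl7l1 (-0.05). In the habenula the highest were Rpl23 (0.59 ± 0.14), a large subunit protein at the face between the subunits, the X-linked Rps4x (0.56 ± 0.08), Rpl8 (0.48) and Rps27l (0.48). Rpl23 ranged from 1224 to 1602 CPM there and from 868 to 994 in the rest. Rps29, a zinc-binding small subunit protein, was among the 4 lowest with -0.20 ± 0.31, beside Rps27rt (-0.36 ± 1.87), Rpl3l (-0.20) and Rplp1. Rps27rt had at most 17 UMIs a section in the habenula, and its ratio there is not precise.

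In the striatum the highest were Rpl31 (0.42 ± 0.04), Rps29 (0.38 ± 0.10), Rps27 (0.37) and Rplp1 (0.37). Rpl31, a large subunit protein near the mouth of the exit tunnel, ranged from 843 to 961 CPM there against 639.6 to 685, with ranges apart and the smallest SD of these 4. The lowest were Rpl7l1 (-0.25), Rpl36al (-0.14), Rps27l (-0.13) and Rpl21 (-0.13). In the choroid plexus, which makes the cerebrospinal fluid, the highest were Rps27l (1.97 ± 0.42), Rpl22 (0.68 ± 0.19), Rpl41 (0.68 ± 0.20) and Rplp0 (0.67 ± 0.17). The lowest were Rps19bp1 (-0.82 ± 0.66), Rpl22l1 (-0.54 ± 0.52), Rpl3l (-0.46) and Rpl3 (-0.45 ± 0.29). Rpl41, a very short protein that bridges the subunits, ranged from 1840.1 to 2998 CPM against 1371 to 1580.1 in the rest.

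The areas below the rest of the section had smaller ratios. Lowest in the isocortex were Rps26 (-0.48 ± 0.11), Rps28 (-0.45 ± 0.13), Rps27 (-0.42 ± 0.15) and Rps27l (-0.41 ± 0.12). Rps26 ranged from 589.7 to 739 CPM there and from 843 to 1039.9 in the rest, opposite to its place in the hypothalamus. The highest were Rps19bp1 (0.17 ± 0.07), Rpl3l (0.16), Rpl29 (0.14 ± 0.09) and Rpl7l1 (0.13), and Rps19bp1 and Rpl29 were above the rest in 8 of 8 sections. In the thalamus the lowest were Rpl41 (-0.55 ± 0.20), Rpl10 (-0.55 ± 0.26), Rps19 (-0.54) and Rpl29 (-0.53), and the highest Rpl34 (0.04), Rpl36al (0.03), Rps27l (-0.01) and Rpl3l (-0.04). Rpl10 stood there at 230.5 and 266 CPM for Control, 397 and 439 for PTX, 291 and 296 for PTX+GCV and 322 and 296 for the sections with the PTX+ABT263 label, with the PTX sections the nearest to the 418 to 495 of the rest.

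In the hippocampus Rpl4 (0.25 ± 0.13), Rps19bp1 (0.24) and Rps2 (0.18) were among the highest, and Rps27 (-0.36 ± 0.17), Rpl26 (-0.35), Rpl39 (-0.30) and Rpl17 (-0.29) lowest. Rpl4, Rpl17 and Rpl39 line the tunnel through which the new peptide leaves the large subunit, and they lay at opposite ends here. In the piriform and amygdalar cortex the range was narrow, from Rps27l (-0.43 ± 0.12), Rps9 (-0.37), Rps27a (-0.33) and Rps12 (-0.32) up to Rpl29 (-0.00), Rps19bp1 (0.02), Rps2 (0.04) and Rpl41 (0.09).

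The paralogs Rpl22 and Rpl22l1 lie at chr4:152325742-152334071 and chr3:28805436-28807424 on GRCm38. In the fiber tracts they stood on opposite sides of the rest of the section, and in the hypothalamus Rpl22l1 had the higher ratio. The protein of either gene can take the same place in the large subunit. In the fiber tracts Rpl22 stood at 568 and 474 CPM for Control, 607 and 579 for PTX, 414 and 459.8 for PTX+GCV and 600.2 and 599.5 for the sections with the PTX+ABT263 label, against 268 to 307 in the rest (log2 ratio 0.88 ± 0.16). Rpl22l1 stood there at 249.9 and 369 CPM for Control, 435 and 288 for PTX, 294 and 366 for PTX+GCV and 329 and 307 for the sections with the PTX+ABT263 label, against 454 to 547 (log2 ratio -0.58 ± 0.20). All 8 sections had Rpl22 above and Rpl22l1 below the rest of the section. In the hypothalamus Rpl22l1 stood at 686 and 709.9 CPM for Control, 801 and 724 for PTX, 862 and 735 for PTX+GCV and 854 and 849.6 for the sections with the PTX+ABT263 label, against 366 to 488 in the rest, so that the ranges were apart. Rpl22 was at 271 to 346 CPM there against 261 to 315, with ranges that overlapped and a ratio above 0 in 6 of 8 sections. In the choroid plexus Rpl22 was at 373 to 582 against 272 to 313, and Rpl22l1 at 153 to 445 against 448 to 546, on 18 to 246 UMIs a section. As printed above, the window of Rpl22 holds CTTTCC before its annotated start. That of Rpl22l1 holds TATAAA before its RefSeq start but after its GENCODE start.

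Rps27l, at chr9:66946086-66949516, is a near-identical paralog of Rps27 (at chr3:90212522-90213651) and is known as a target of p53. It had the widest range over the areas of the 84 genes, 2.40 on the log2 scale, because of the choroid plexus. There it stood at 329.5 and 212 CPM for Control, 263 and 269 for PTX, 151 and 195 for PTX+GCV and 352 and 317 for the sections with the PTX+ABT263 label, against 58.9 to 71.5 in the rest. All 8 sections were apart from the rest, on 21 to 232 UMIs a section in 22 to 45 spots, and the PTX+GCV sections were the lowest. Rps27l had a UMI in a median of 75.2% of choroid plexus spots, 55.6% of isocortex spots and 28.2% of fiber tract spots. These percentages also depend on depth, and fiber tract spots were shallow. By level Rps27l was higher in the fiber tracts, at 75.7 to 139 CPM with TMM factors, than in the isocortex, at 45.6 to 58.5. Ttr, the main transcript of the choroid plexus, had one in a median of 78.7% of isocortex spots, and the source of these UMIs was not tested. Rps27 was at 1153 to 1853 CPM in the choroid plexus against 1088 to 1362 in the rest. In the meninges Rps27l was at 86.0 to 156 CPM against 61.1 to 72.5.

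**Figure D4:**
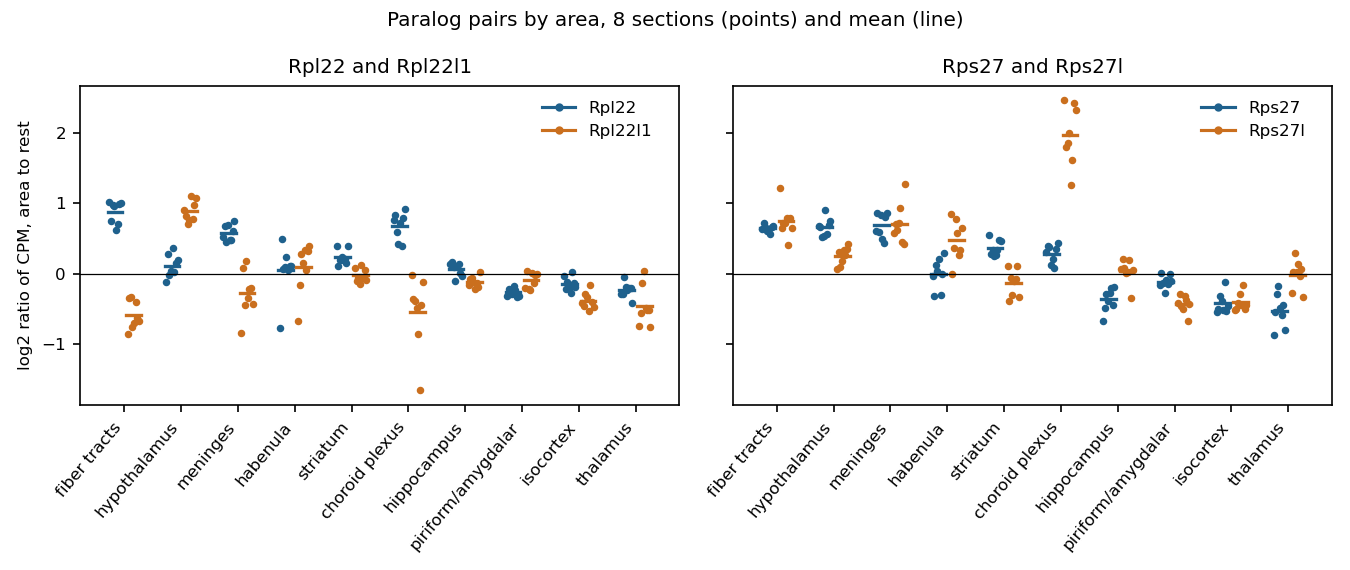
Log2 ratio of the level in an area to that in the rest of the section (y axis) for Rpl22 with Rpl22l1 and for Rps27 with Rps27l in 10 areas (x axis), 8 points a gene (1 per section) and a line at their mean. Rpl22 and Rpl22l1 separate in the fiber tracts and, the other way, in the hypothalamus, and Rps27l reaches 1.97 in the choroid plexus.

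Of the other paralogs, Rpl36al followed the shared profile in part, with -0.02 in the fiber tracts and 0.31 in the hypothalamus. Rpl3l, which in striated muscle takes the place of Rpl3, had 104 UMIs in all and gives no profile of use. Rpl7l1, a nucleolar relative of Rpl7 with 10960 UMIs, was at -0.21 in the fiber tracts and 0.13 in the isocortex. Rps27rt had 5751 UMIs and could share reads with Rps27. Rps19bp1 ran against the ribosomal genes, at 42.9 to 53.5 CPM in the isocortex against 39.3 to 47.2 in the rest and at 26.7 to 39.2 CPM in the fiber tracts against 41.0 to 49.2.

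Other genes of the same pathway gave a mixed picture by area. The 8 host genes of small nucleolar RNAs, whose own messengers begin like those of ribosomal proteins, had a median log2 ratio of 0.31 in the fiber tracts, 0.41 in the hypothalamus and -0.27 in the thalamus. By contrast 24 genes of ribosome assembly had -0.29 in the fiber tracts, 78 genes of the mitochondrial ribosome -0.35 and 14 genes of mTOR and TOP control -0.38, all near or below the -0.26 of all genes. The 14 translation factors and partners with TOP messengers had 0.03 in the fiber tracts and 0.19 in the hypothalamus, and the 24 initiation factors -0.07 and -0.02.

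The share of UMIs from the 84 genes also differed between groups in single sections. Over the whole section the mean was 6.35% ± 0.182 (SD, n = 2) in Control, 6.77% ± 0.090 in PTX, 6.33% ± 0.0214 in PTX+GCV and 6.96% ± 0.113 in those labelled PTX+ABT263. The PTX sections lay above both Control sections and both PTX+GCV sections, and below both PTX+ABT263 sections. PTX lay above Control with no overlap in 4 of 10 areas (fiber tracts, habenula, isocortex and thalamus) and below it in 0. PTX+GCV lay below PTX with no overlap in 4 areas (fiber tracts, meninges, isocortex and thalamus) and above it in 0. The PTX+ABT263 sections lay above PTX in 6 areas (fiber tracts, hypothalamus, habenula, striatum, choroid plexus and piriform and amygdalar cortex) and below it in the thalamus. Over spots of 4000 to 8000 UMIs only, these 2 groups overlapped in the hypothalamus, choroid plexus, piriform and amygdalar cortex and thalamus. They stayed apart there in the fiber tracts and striatum, and the habenula had too few such spots. In the isocortex the group means were 5.60%, 6.10%, 5.70% and 6.20%, and in the thalamus 4.80%, 6.27%, 5.19% and 5.41%, in the order Control, PTX, PTX+GCV and PTX+ABT263. The thalamus share of PTX was 1.31 times that of Control. With no difference between groups, 2 sections lie apart from 2 others in 1 given direction with a chance of 16.7%. The 10 areas are parts of the same sections and libraries, so they are not 10 separate observations. All 3 comparisons with PTX use the same 2 PTX sections, so they are not independent. The share is a sum over the genes and was given no test.

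PTX against Control asked whether past chemotherapy was accompanied by other levels of these genes. None of the 84 passed the edgeR quasi-likelihood test at an adjusted p of 0.05, beside 0.126% of 16671 genes tested (21 genes). DESeq2 also called 0 of them. At an unadjusted p under 0.05 there were 3, all higher in PTX, where 5.86% of all genes were higher by that measure. These were Rpl10, with a log2 fold change of 0.15 (SE 0.07, adjusted p = 0.344), Rpl29, with 0.15 (SE 0.07, adjusted p = 0.346), and Rps27l, with 0.14 (SE 0.06, adjusted p = 0.357). Rpl10 stood at 412 and 405 CPM for Control, 444 and 464 for PTX, 393 and 399 for PTX+GCV and 473 and 507 for the sections with the PTX+ABT263 label (CPM with TMM factors, as for all levels between groups). Both PTX sections lay above both Control sections for it. The lower end held Rps28 with -0.15 (SE 0.10, adjusted p = 0.546), Rpl31 with -0.09 and Rpl5 with -0.09, and none of these differed beyond the spread. The median log2 fold change of the 84 was 0.05, beside 0.01 for all genes, and 65 lay above 0, beside 51.3% of all genes. Both PTX sections lay above both Control sections for 28 genes, beside 21.8% of all genes, and below for 8, beside 20.5%. Without the shallowest library, Control section 1, the median was -0.00, so the small shift of the whole section rested on that section. Without Control section 2 it was 0.10, and with total counts 0.11 beside 0.06 for all genes.

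The shift was larger in the isocortex: 71 of 83 tested genes had a fold change above 0, beside 50.3% of all genes, with a median of 0.11 beside 0.00. Again edgeR called 0, beside 0.384% of 14321 genes, and DESeq2 0. At an unadjusted p under 0.05, 15 were higher, beside 5.31% of all genes. Rps27l stood at 45.6 and 46.8 CPM for Control, 58.5 and 58.3 for PTX, 47.8 and 55.1 for PTX+GCV and 56.3 and 57.2 for the sections with the PTX+ABT263 label, a log2 fold change of 0.34 (SE 0.10, adjusted p = 0.15). Rps27 stood at 791 and 902 CPM for Control, 1086 and 1028 for PTX, 928 and 971 for PTX+GCV and 1019 and 1210.2 for the sections with the PTX+ABT263 label, with 0.32 (SE 0.10, adjusted p = 0.195). For both, the 2 PTX sections lay above the 2 Control sections. Rpl36al had 0.29 (SE 0.10, adjusted p = 0.236). Without a filter on low counts Rps27 passed, with an adjusted p of 0.0252, beside 1.74% of all genes. The lower end held Rpsa with -0.13 (SE 0.09, adjusted p = 0.611), Rpl5 with -0.12 and Rps27rt with -0.23 (SE 0.19, adjusted p = 0.665). The PTX sections lay above Control without overlap for 52 genes, beside 21.1% of all genes, and below for 7, beside 20.8%.

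Markers of other cells moved with this comparison. In the isocortex the summed level of 11 choroid plexus markers was 1169 to 1200 CPM in PTX against 288 to 429 in Control, with 10 of 11 higher without overlap. The 5 blood markers were at 320.1 to 378 against 121 to 208, and 15 fiber tract markers at 3860 to 4023 against 3692 to 3796, with 10 of 15 higher. Of 14 striatum markers 11 were higher and of 10 endothelium markers 6. The blood markers of the whole section were at 328 to 338 CPM in PTX against 58.9 to 91.0 in Control, with 8 of 8 habenula markers and 10 of 14 striatum markers higher and 9 of 17 thalamus markers lower without overlap. In the hippocampus the blood markers were at 500.1 to 696 CPM against 10.2 to 43.3. The 13 mitochondrially encoded genes had a median log2 fold change of -0.11 over the whole section, with 0 of 13 above 0, -0.01 in the isocortex and 0.39 in the hippocampus. No marker of the choroid plexus, blood and fiber tract lists was at 0 in all sections. The part of all these in the ribosomal values was not tested.

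In the fiber tracts edgeR called 0 of 83 genes (0.0303% of 9895), with 0 at an unadjusted p under 0.05 (3.9% of all genes) and 0 by DESeq2. The median was 0.10, with 73 above 0 (50.5% of all genes) and 38 higher without overlap, beside 16.6%, and 1 lower, beside 15.4%. In the hippocampus it called 0 (0.0334% of 11983), with 2 at an unadjusted p under 0.05, 1 in each direction (1.74% of all genes higher and 2.06% lower), and 0 by DESeq2. The median there was 0.07, with 65 above 0 (51% of all genes), 12 higher without overlap (15.2%) and 6 lower (15.3%), and it turned to -0.03 without Control section 1, with 0.19 without Control section 2 and 0.04 without PTX section 1. With total counts it was 0.03 beside -0.03 for all genes. The difference between the isocortex and the rest of the section was tested with limma on log2 CPM: 0 of 83 passed (0.021% of 14280), with 2 at an unadjusted p under 0.05 (8.59%), and the median difference was 0.06. The isocortex was thus not shown to differ from the rest of the section in its PTX values.

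PTX+GCV against PTX asked how the levels stood after removal of p16-expressing cells. No gene of the 84 passed edgeR's test, beside 0.024% of all genes, and DESeq2 called 0. But 28 had an unadjusted p under 0.05, all lower in PTX+GCV, beside 5.36% of all genes, and only 2 of 84 had a fold change above 0, beside 49.9%. The median was -0.14 beside -0.00 for all genes. Rpl22 stood at 285 and 295 CPM for Control, 306 and 302 for PTX, 266 and 264 for PTX+GCV and 322 and 336 for the sections with the PTX+ABT263 label, a log2 fold change of -0.20 (SE 0.06, adjusted p = 0.283). Rps27l stood at 61.7 and 63.7 CPM for Control, 71.2 and 67.2 for PTX, 61.5 and 58.9 for PTX+GCV and 72.2 and 70.1 for the sections with the PTX+ABT263 label, with -0.20 (SE 0.06, adjusted p = 0.283). Rpl10 had -0.20 (SE 0.07, adjusted p = 0.321). In each of these the PTX+GCV sections lay below both the PTX and the Control sections. The 2 genes above 0 were Rpl3l with 0.54 (SE 0.43, adjusted p = 0.711) and Rpl7l1 with 0.01. PTX+GCV lay below PTX without overlap for 65 of 84, beside 20.2% of all genes, and above for 0, beside 20.6%.

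In the isocortex the median was -0.15 with 2 of 83 above 0 (49.5% of all genes), and edgeR called 0 (0.0279% of all genes) and DESeq2 0, with 7 at an unadjusted p under 0.05, all lower, beside 3.41%. Rpl39, which lines the exit tunnel, had -0.23 (SE 0.09, adjusted p = 0.706), Rps13 -0.20 and Rpl30 -0.21. The genes above 0 were Rpl7l1 (0.08) and Rps19bp1 (0.02). The 2 PTX+GCV sections differed here, since the median was -0.06 without section 1 of that group and -0.22 without section 2. PTX+GCV was lower without overlap for 66 genes, beside 19.2% of all genes, and higher for 1, beside 18.3%. The fiber tracts had a median of -0.22 with 2 above 0 (49.8%), 12 at an unadjusted p under 0.05, all lower, beside 2.32%, and 64 lower without overlap, beside 17.4%, with 0 higher, beside 15.7%. There edgeR and DESeq2 called 0 each (0.0303% of all genes by edgeR). In the hippocampus the median was -0.09, with 8 above 0 (50.1%), 1 lower at an unadjusted p under 0.05 (2.95% of all genes), 40 lower without overlap (18.9%), 2 higher (18.7%) and 0 called by either tool (0.0334% by edgeR). With total counts the median was -0.02 beside 0.08 for all genes in the hippocampus, and -0.14 beside 0.08 in the fiber tracts. With a section left out it ran from -0.15 (without PTX section 2) to -0.06 (without PTX section 1) in the hippocampus. Between the isocortex and the rest of the section limma called 0 (0.007%) with 0 at an unadjusted p under 0.05 (4.11%), and the median difference was 0.01.

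Here too other markers moved. Over the whole section, 11 choroid plexus markers summed to 1310 to 1407 CPM in PTX+GCV and 2435 to 3295 in PTX, with 9 of 11 lower without overlap, and the 5 blood markers to 41.9 to 59.3 against 328 to 338. In the isocortex the fiber tract markers were at 3472 to 3553 CPM against 3860 to 4023, with 10 of 15 lower. Over the whole section 14 of 17 thalamus markers were higher without overlap. In the isocortex 8 of 11 choroid plexus and 8 of 14 striatum markers were lower and 12 of 18 hippocampus markers higher. The 13 mitochondrially encoded genes had a median log2 fold change of -0.26 over the whole section, with 1 of 13 above 0 and 5 lower at an unadjusted p under 0.05, -0.28 in the isocortex, -0.32 in the hippocampus and -0.24 in the fiber tracts. The part of these in the ribosomal values was not tested.

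The sections labelled PTX+ABT263 against PTX gave differences of the opposite sign. Both of these sections also differed from PTX in Xist and Ddx3y. The treatment and whatever lies behind that difference, such as sex, cannot be told apart in this comparison. No gene passed edgeR's test, beside 0.138% of all genes, and 24 had an unadjusted p under 0.05, all higher in the PTX+ABT263 sections, beside 5.87%. DESeq2 called 1 (0.6% of all genes), Rps28, with a log2 fold change of 0.38 and an adjusted p of 0.00885. Rps28, a small subunit protein near the site where spent transfer RNA leaves, stood at 1077 and 1235 CPM for Control, 1072 and 1019 for PTX, 1055 and 882 for PTX+GCV and 1301 and 1427 for the sections with the PTX+ABT263 label, with 0.38 (SE 0.10, adjusted p = 0.16) by edgeR. Both PTX+ABT263 sections were above all 6 others. The stalk protein Rplp1 stood at 2254 and 2521 CPM for Control, 2231 and 2426 for PTX, 2255 and 2093 for PTX+GCV and 2675 and 2945 for the sections with the PTX+ABT263 label, with 0.27 (SE 0.08, adjusted p = 0.229). Rpl38, a small protein of the large subunit, stood at 2029 and 2257 CPM for Control, 2081 and 2094 for PTX, 2021 and 1865 for PTX+GCV and 2400.2 and 2529 for the sections with the PTX+ABT263 label, with 0.24 (SE 0.08, adjusted p = 0.239). Without a filter on low counts 8 genes passed, beside 3.01% of all genes: Rpl37, Rpl37a, Rpl38, Rplp1, Rps21, Rps26, Rps28 and Rps29. At the lower end were Rpl15 (-0.01) and Rpl7l1 (-0.00). The PTX+ABT263 sections lay above PTX without overlap for 64 of 84 and below for 0, each beside 22.3% of all genes.

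The size of this shift depended on the scaling. With TMM factors the median was 0.13 beside 0.00 for all genes, with 82 of 84 above 0, beside 51.3%. With total counts the median of all genes was -0.11 and that of the 84 was 0.01, with 47 above 0. Relative to all genes it was 0.12 by either scaling, and 82 of 84 lay above the median of all genes in both. A change of scaling moves all genes of a section together. These values could therefore hardly differ between the scalings, and their match adds no support. The 13 mitochondrially encoded genes had a median of 0.32 in the same comparison, all 13 above 0, and took a larger part of the totals of these sections. Without section 2 of the PTX+ABT263 label the median of the 84 was 0.08, and without section 1 it was 0.19.

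In the isocortex the median was 0.14 with 80 of 83 above 0 (49.6% of all genes), and with total counts 0.01 beside -0.13 for all genes. No gene was called by edgeR (0.237% of all genes) or DESeq2, and 21 had an unadjusted p under 0.05, all higher, beside 5.41%. Rpsa, a small subunit protein also known as a laminin receptor, stood at 715 and 694 CPM for Control, 605 and 684 for PTX, 612 and 636 for PTX+GCV and 766 and 859 for the sections with the PTX+ABT263 label, with 0.34 (SE 0.09, adjusted p = 0.174). It passed without a filter on low counts, with an adjusted p of 0.0330, beside 1.51% of all genes. The stalk base Rplp0 had 0.25 (SE 0.08, adjusted p = 0.265) and Rps28 0.29 (SE 0.09, adjusted p = 0.251). At the lower end were Rps27l (-0.04), Rpl22l1 (-0.02) and Rpl15 (-0.01). PTX+ABT263 lay above PTX without overlap for 65 genes and below it for 1, each beside 22% of all genes. Section 2 of that group was the higher one, since the median was 0.08 without it and 0.21 without section 1. In the isocortex the mitochondrially encoded genes had a median of 0.49, with 13 of 13 higher at an unadjusted p under 0.05 and 1 past edgeR's test. Without overlap 13 of 14 striatum markers, 8 of 10 endothelium, 6 of 11 choroid plexus and 4 of 5 blood markers were lower there than in PTX. Their part in the ribosomal values was not tested.

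The fiber tracts had a median of 0.14, with 77 above 0 (49.1% of all genes), 1 gene at an unadjusted p under 0.05 (1.68% of all genes higher) and 35 higher without overlap, beside 14.5%, with 0 lower, beside 15.1%. In the hippocampus it was 0.14, with 79 above 0 (49.4%), 1 gene at an unadjusted p under 0.05 (1.58%) and 28 higher without overlap and 1 lower, each beside 15.2%. These medians depended on the section and the scaling. Without section 2 of the PTX+ABT263 label the fiber tract median was 0.05 and the hippocampal one 0.02, while both were 0.25 without section 1. With total counts they were 0.05 and 0.07, beside -0.09 and -0.07 for all genes. EdgeR and DESeq2 called 0 in each (0.0505% and 0.108% of all genes by edgeR). Between the isocortex and the rest of the section limma called 0 (0.021%), with 1 at an unadjusted p under 0.05 (5.27%), and a median difference of 0.01. Over the whole section all 14 striatum markers were lower without overlap than in PTX and the 5 blood markers summed to 6.48 to 109 CPM against 328 to 338, and their part in the ribosomal values was not tested.

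**Figure D5:**
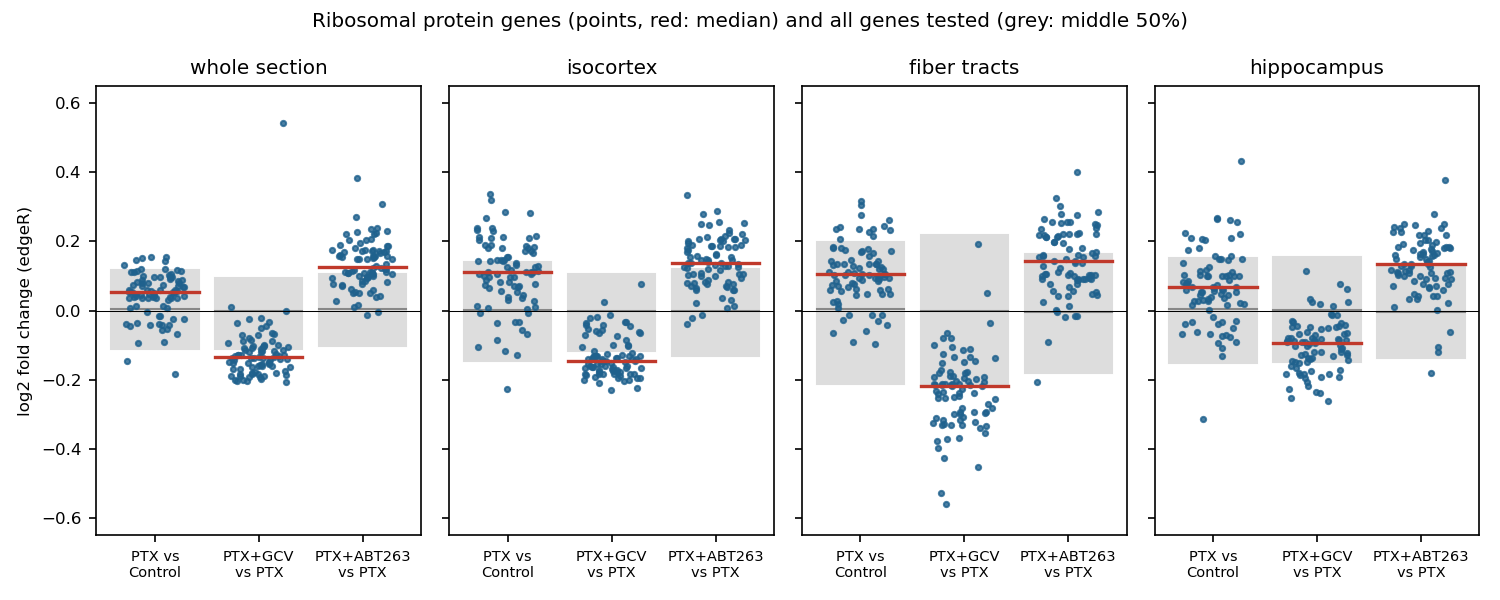
Log2 fold changes of the ribosomal protein genes (points) with their median (red line), beside the median and middle 50 percent of all genes tested (grey), for 3 comparisons in 4 regions: whole section, isocortex, hippocampus and fiber tracts. Over the whole section the medians are 0.05 for PTX against Control, -0.14 for PTX+GCV against PTX and 0.13 for PTX+ABT263 against PTX, with no gene past the test.

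Across the 4 groups together, edgeR called 0 of 84 over the whole section, beside 0.498% of all genes, with 65 at an unadjusted p under 0.05, beside 16.2%. The smallest adjusted p of the 84 was 0.0917. In the isocortex it called 0, beside 0.894%, with 57 at an unadjusted p under 0.05, beside 14.6%, and a smallest adjusted p of 0.0722. DESeq2 called 39 of the 84 over the whole section, beside 3% of all genes with an adjusted p, and 30 in the isocortex, beside 3.91%. Without a filter on low counts edgeR called 48, beside 8.23% of all genes, and 28 in the isocortex, beside 4.17%. The answer to this comparison thus differed with the tool and the filter. Leaving out the sections labelled PTX+ABT263 changed little in the comparisons of the other groups: the medians were 0.05 for PTX against Control and -0.14 for PTX+GCV against PTX over the whole section, 0.11 and -0.14 in the isocortex, and 0 genes passed.

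The stalk and the paralogs in the whole section followed the same order of groups in part. Rplp0 stood at 289 and 296 CPM for Control, 283 and 304 for PTX, 274 and 264 for PTX+GCV and 314 and 349 for the sections with the PTX+ABT263 label. Rplp2 stood at 687 and 753 CPM for Control, 703 and 750.5 for PTX, 675 and 666 for PTX+GCV and 791 and 849.6 for the sections with the PTX+ABT263 label. Rpsa stood at 764 and 763 CPM for Control, 684 and 799.6 for PTX, 681 and 696 for PTX+GCV and 793 and 880.0 for the sections with the PTX+ABT263 label, with its 2 PTX sections the farthest apart of its 4 groups. Among the paralogs, Rpl22l1 stood at 444 and 481 CPM for Control, 530.3 and 469 for PTX, 458 and 449.8 for PTX+GCV and 521 and 521 for the sections with the PTX+ABT263 label, and Rpl36al at 270.3 and 304 CPM for Control, 319.9 and 316 for PTX, 274 and 292 for PTX+GCV and 336 and 345 for the sections with the PTX+ABT263 label. Rps27rt stood at 24.1 and 21.9 CPM for Control, 24.1 and 16.2 for PTX, 23.3 and 16.8 for PTX+GCV and 19.7 and 24.7 for the sections with the PTX+ABT263 label, with groups that overlapped. Rpl7l1 lay between 38.6 and 41.1 CPM in all 8 sections, Rps19bp1 between 40.1 and 46.0 and Rpl3l between 0.25 and 0.58.

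The 4 X-linked genes Rpl10, Rpl36a, Rpl39 and Rps4x were looked at because of Xist in the sections labelled PTX+ABT263. Against PTX their log2 fold changes there were 0.11, 0.16, 0.12 and 0.10, near the median of 0.13 of the 84. PTX against Control gave 0.15, 0.06, 0.05 and 0.05, and PTX+GCV against PTX -0.20, -0.14, -0.21 and -0.10. In contrast the X-linked initiation factor Eif2s3x, which escapes X inactivation in mice, stood at 65.1 and 62.7 CPM for Control, 65.7 and 63.1 for PTX, 66.8 and 65.3 for PTX+GCV and 96.6 and 101 for the sections with the PTX+ABT263 label. It rose in the sections labelled PTX+ABT263 by a log2 fold change of 0.62 (SE 0.06, adjusted p = 0.000968, edgeR) and moved with Xist. Any part of a difference in sex in the ribosomal values, X-linked or autosomal, was not tested.

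Of the other pathway genes over the whole section Eif2s3x alone passed edgeR's test. The 14 TOP translation factors and partners had medians of -0.02 in PTX against Control, -0.02 in PTX+GCV against PTX and 0.07 in PTX+ABT263 against PTX. Among them Pabpc1, the poly(A)-binding protein, had a log2 fold change of 0.38 (adjusted p = 0.141) in the last of these, and Tpt1 -0.20 (adjusted p = 0.385) in PTX+GCV against PTX. In the same order of comparisons the medians were 0.02, 0.02 and 0.02 for the 24 assembly genes, 0.09, -0.07 and 0.00 for the 8 snoRNA hosts, and 0.05, -0.05 and 0.02 for the 78 mitochondrial ribosome genes. The 14 genes of mTOR and TOP control had -0.03, 0.05 and 0.01. Among them Larp1, which binds TOP messengers, had -0.32 (adjusted p = 0.121) in PTX against Control, and Rps6kb2, a kinase of Rps6, had -0.41 (adjusted p = 0.120) in PTX+ABT263 against PTX. The 24 initiation factors had -0.03, 0.02 and 0.07. The 84 ribosomal genes had 0.05, -0.14 and 0.13.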

How the data were processed

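The deposited files hold raw UMI counts per gene and spot, made by the authors with Space Ranger on mm10, and the submitters' processing notes also name Seurat 4.0 for later steps not used here. Spots with at least 200 genes and at most 30% mitochondrial UMIs were kept (21328 spots, 7583 to 15715.5 median UMIs a section). They were clustered with Seurat 5.3.0 (SCTransform, anchor integration, 2000 features without ribosomal protein genes, 20 components, resolution 0.15) and clusters were named by marker genes among their top 10 genes. A further naming criterion was dropped after the clusters had been seen. Doublets were not called, since a spot is a small region. Counts were summed per section and area, and tested with edgeR 4.0.16 (TMM, filterByExpr, quasi-likelihood F-test, all 8 sections in 1 fit) in R 4.3.3, with Benjamini-Hochberg adjustment over all genes. Isocortex minus rest of section was tested with limma 3.58.1 (prior count 2, eBayes with a trend on the level, chosen after a version without a trend recovered nothing in simulated data). DESeq2 1.42.0 was an alternative, beside total counts, no filter on low counts, thinned counts, other clusters, all spots, no mitochondrially encoded genes and leaving out sections. The tests were tried on simulated counts with known changes.

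The genes named are, in the whole section and the isocortex, the 3 with the smallest p each way in a comparison, the 4 highest and 4 lowest in each area, all paralogs, stalk proteins, Rpsa, Rps19bp1 and X-linked genes, and up to 4 genes of a pathway list with the smallest p. The members, lists and tests were chosen with earlier results of these data known. Protein sequences were not used here. Some genes that the naming rule took are not reported here.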

Additional observations from a re-analysis of the deposited data

How the results depend on the processing

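For the fold changes of the genes named, 293 values under other settings kept their direction and their side of the threshold, 3 turned and 6 passed the threshold, and with a section left out 253 kept both and 11 turned. DESeq2 called 1 gene in PTX+ABT263 against PTX over the whole section, and 39 (whole section, 3% of all genes) and 30 (isocortex, 3.91%) across the 4 groups. Without a filter on low counts the calls were 8 in PTX+ABT263 against PTX over the whole section, 1 in PTX against Control and 1 in PTX+ABT263 against PTX in the isocortex, and 48 and 28 across the 4 groups (8.23% and 4.17% of all genes). Over all genes of the whole section the 3 comparisons had 21, 4 and 23 calls by edgeR, 151, 78 and 106 by DESeq2, and 874, 547 and 712 without the filter; the cause was not tested. With counts thinned to the shallowest section, small values changed sign: Rpl7l1 over the whole section (0.00456) and Rps27l in the isocortex (0.0249) in PTX+ABT263 against PTX, and Rps19bp1 in the isocortex in PTX+GCV against PTX (-0.00252).

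The log2 ratio of group shares moved with the weighting. As a mean over spots it was 0.119 in PTX against Control over the whole section and -0.0941 in the hippocampus, where the share of the sum gave 0.03, and the ratios to the isocortex were 1.17 for the whole section, 1.31 for the choroid plexus and 1.12 for the hippocampus. Outside mitochondrially encoded genes it was -0.129 in PTX+GCV against PTX and 0.0727 in PTX+ABT263 against PTX over the whole section, and -0.0832 in PTX+GCV against PTX in the striatum. The median ratio of the 84 genes was 0.57 in the fiber tracts, 9.69e-05 in the habenula and 0.21 in the striatum with TMM factors, 0.19 in the striatum outside mitochondrially encoded genes, and -0.24 in the piriform and amygdalar cortex with finer clusters.

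With a section left out, the log2 fold changes over the whole section ranged from -0.0226 to 0.0411 for Rpl7l1 in PTX+GCV against PTX, and in PTX+ABT263 against PTX from -0.0525 to 0.0267 for Rpl15 and -0.0350 to 0.0287 for Rpl7l1. In the isocortex they ranged from -0.53 to 0.0188 for Rps27rt in PTX against Control, -0.121 to 0.148 for Rps19bp1 in PTX+GCV against PTX, and in PTX+ABT263 against PTX from -0.123 to 0.0856 for Rpl22l1 and -0.0555 to 0.0272 for Rpl15. Calls across the 4 groups ranged from 0 to 1 over the whole section (1 without either Control section) and from 0 to 5 in the isocortex (5 without Control section 2, 1 without PTX+GCV section 2). The log2 ratios of shares in PTX against Control ranged from 0.0629 to 0.121 over the whole section, -0.0246 to 0.153 in the hypothalamus, -0.0218 to 0.201 in the meninges, -0.0356 to 0.0924 in the piriform and amygdalar cortex and 0.277 to 0.506 in the thalamus. In PTX+GCV against PTX they ranged from -0.198 to 0.0420 in the habenula, -0.0598 to 0.0653 in the striatum and -0.187 to -0.0143 in the isocortex, and in PTX+ABT263 against PTX from -0.00286 to 0.182 in the hippocampus. Section numbers did not pair the sections, since correlations of same-numbered deviations ran from -0.115 to 0.0662, and with the section number as a block (replicate block) 0 genes were called in each comparison. With 2 sections a group, small shifts of single genes cannot be told from the spread.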
